A study of Mus musculus with 10 samples.

Results

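MOF, listed in the files as Kat8, and 8 subunits of the complexes in which it works were followed in the visceral white adipose tissue (WAT) of mice. The members were chosen by symbol: Kat8, Msl1, Msl2, Kansl1, Kansl2, Kansl3, Mcrs1, Phf20 and Wdr5, 9 of the 47937 genes listed for each library. The series holds 10 bulk mRNA libraries of mice in 4 groups, of the strain C57BL/6 in the labels and backcrossed to C57BL/6J in the study's methods. They are wild-type mice (Mof+/+) on a standard diet (SD, 3 libraries), Mof heterozygous mice (Mof+/-) on SD (3), Mof+/+ mice on a high-fat diet (HFD, 2) and Mof+/- mice on HFD (2). The design text gives an age of 8 weeks for the SD mice, and of 27 weeks with 20 weeks of HFD for the HFD mice, so that diet and age cannot be told apart. The study's own text gives a longer time on HFD than the design text, and its methods name only young adult mice for this RNA. Mof+/- mice are heterozygous for a disrupted Mof allele throughout the body, and the sources used here do not say which part of the gene it lacks, so reads from that allele may still be counted.

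MOF is the lysine acetyltransferase that places the acetyl group on lysine 16 of histone H4 (H4K16ac), a mark that loosens the packing of chromatin. It does so in the male-specific lethal (MSL) complex, where MSL1 is the scaffold and MSL2 a ubiquitin ligase, and it also works in the non-specific lethal (NSL) complex. The NSL complex is built on KANSL1, holds KANSL2, KANSL3, MCRS1, the chromatin reader PHF20 and the adaptor WDR5, and binds at the promoters of widely expressed genes.

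The 250 bases before the annotated start of 3 members are shown, because Kat8 is the targeted gene, Msl2 had the lowest fitted log2 fold change between genotypes on SD and Kansl3 the lowest adjusted p. They are RefSeq sequence of GRCm38.p6, 5′ to 3′ on the strand of the gene: Kat8 at chr7:127912267-127912516 (+), Msl2 at chr9:101073804-101074053 (+) and Kansl3 at chr1:36369182-36369431 (−). Capitals mark the motifs searched on both strands, which are the GC box (GGGCGG), the core bound by ETS factors (CCGGAA), the CCAAT box named by its letters, and the TATA box (TATAAA). AAGATGGC, a motif of YY1, was searched too and has no match in the windows of the 9 genes (1.57% of all windows hold it).
Kat8: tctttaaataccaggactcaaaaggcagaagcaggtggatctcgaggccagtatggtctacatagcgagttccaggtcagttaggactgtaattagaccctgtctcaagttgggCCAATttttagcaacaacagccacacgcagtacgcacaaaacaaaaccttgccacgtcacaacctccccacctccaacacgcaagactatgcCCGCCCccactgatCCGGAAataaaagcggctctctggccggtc
Msl2: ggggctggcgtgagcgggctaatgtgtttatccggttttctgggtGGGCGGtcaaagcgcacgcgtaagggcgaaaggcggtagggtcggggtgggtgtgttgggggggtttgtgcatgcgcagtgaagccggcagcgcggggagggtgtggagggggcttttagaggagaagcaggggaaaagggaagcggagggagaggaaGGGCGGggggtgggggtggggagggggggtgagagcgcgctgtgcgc
Kansl3: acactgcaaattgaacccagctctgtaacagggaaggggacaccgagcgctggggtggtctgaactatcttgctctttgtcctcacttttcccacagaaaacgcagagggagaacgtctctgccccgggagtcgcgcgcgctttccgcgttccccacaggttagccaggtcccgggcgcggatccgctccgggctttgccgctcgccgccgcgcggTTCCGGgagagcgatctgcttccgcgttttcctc
The window of Kat8 holds 1 GC box, 1 ETS core and 1 CCAAT box, that of Msl2 holds 2 GC boxes, and that of Kansl3 holds 1 ETS core. Of the 9 members, 8 had a GC box, against 33% of 32526 promoter windows of the same length, 3 had an ETS core (12.1%), 4 had a CCAAT box (33.8%) and none had a TATA box (12.3%). The windows of the members were 51.2% (Kat8) to 80.4% (Msl1) G and C, with a median over all windows of 52.4%, and held 10 (Kat8) to 26 (Kansl3) CpG, with a median of 6. A match describes letters only.

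Facts of the libraries bear on every comparison. Total counts ran from 1044355 in the library labelled HFD Mof+/- replicate 1 to 17171947. In that library 26.9% of the counts were mitochondrial, 8 skeletal muscle markers summed to 51566 CPM (1381 CPM in HFD Mof+/- replicate 2 and at most 84.9 CPM elsewhere), and 243 of 4424 genes that had at least 20 CPM in all the other libraries were at 0. On SD, sex-linked transcripts moved completely with genotype: the 3 Mof+/- libraries held Xist (46.1 to 139 CPM) and no count of 4 Y-linked genes, whereas the 3 Mof+/+ libraries had Y-linked genes at 194 to 225 CPM in sum and Xist at 0. All the HFD libraries had the pattern of the SD Mof+/+ libraries. The labels give no sex, and the study's methods name male mice for this RNA, which the Xist of the libraries labelled SD Mof+/- goes against. On SD, genotype and sex-linked expression thus cannot be told apart. The defining adipocyte markers were present in every library, and their sum was 17088 to 21351 CPM in SD Mof+/+ and 32159 to 50270 CPM in SD Mof+/-. The headings inside the files exchange the genotypes of the libraries numbered 3 on SD. By Xist and the Y-linked genes both of these libraries had the pattern of the other libraries with their label, and samples are grouped by their labels here. The headings also number the HFD Mof+/- libraries 3 and 4, where the labels give 1 and 2. Replicate numbers here are those of the labels.

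Per exon length, Msl1 was the most abundant of the 9 transcripts in SD Mof+/+ WAT, and Kat8 stood eighth. Levels are CPM (counts divided by the library's total and put on a common scale) after TMM scaling, divided by kilobases of exon (mean ± s.d., n = 3). Msl1 was at 17.1 ± 0.938, Kansl3 at 11.6 ± 1.25, Mcrs1 at 11.5 ± 1.43, Kansl2 at 9.40 ± 0.812 and Wdr5 at 9.31 ± 1.17 CPM per kb. Kansl1 followed at 6.86 ± 0.443, Msl2 at 6.77 ± 1.79, Kat8 at 6.35 ± 0.322 and Phf20 at 3.72 ± 0.486 CPM per kb. The libraries of neighbours in this order did not overlap at 3 steps, between Msl1 and Kansl3, Wdr5 and Kansl1, and Kat8 and Phf20, and overlapped at the others. The order is that of SD Mof+/+ only. In HFD Mof+/+ (n = 2), Kat8 was at 6.07 ± 0.253, above Kansl1 (4.38 ± 0.770) and Msl2 (4.37 ± 0.513). Longer transcripts ran higher in SD Mof+/+ than in the mean of all libraries, as given below, and their part in the order was not tested.

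Kat8 (ENSMUSG00000030801.10, GRCm38 chr7:127912516-127925837, + strand) was lower in most but not all libraries labelled Mof+/-, and no test called the difference. Its CPM on total counts was 21.5, 21.4 and 20.4 in SD Mof+/+ and 12.2, 18.8 and 11.5 in SD Mof+/-, from 168, 156, 158, 210, 196 and 77 counts. On HFD it was 18.1 and 19.2 CPM in Mof+/+ (281 and 308 counts) and 20.1 and 10.5 CPM in Mof+/- (21 and 58 counts). The SD groups did not overlap on this scale, and the exact Clopper-Pearson 95% interval of SD Mof+/- replicate 2 (16.3 to 21.6 CPM), which covers counting error only, reached the values of all the SD Mof+/+ libraries. The HFD groups overlapped, with one Mof+/- library above and the other below both Mof+/+ libraries.

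TMM scaling lessened the difference on SD, since CPM on total counts lies 0.37 lower on the log2 scale for every gene of SD Mof+/- against SD Mof+/+ than TMM-scaled CPM does. Kat8 was then at 18.4 ± 0.932 CPM in SD Mof+/+ and 15.9 ± 4.11 CPM in SD Mof+/- (s.d., n = 3), and SD Mof+/- replicate 2 was the highest of the SD libraries at 20.6 CPM. The fitted log2 fold change was −0.22 (standard error 0.35, 95% interval −1.02 to 0.58, adjusted p = 0.736, edgeR's quasi-likelihood test over all genes). A log2 fold change of −1 lies inside this interval. An exact two-sided permutation test of log2 CPM on SD gave a difference of −0.24 (p = 0.4), and CPM on total counts gave −0.61 with p = 0.1, which is the smallest p that 3 libraries against 3 allow. The difference in log2 CPM was −0.44 without SD Mof+/- replicate 2 (exact p = 0.1, the smallest possible), and −0.13 and −0.14 without replicates 1 and 3. With labels permuted within each diet over all 10 libraries, the difference was −0.18 (exact p = 0.617, smallest possible 0.0167) and −0.48 on total counts (exact p = 0.1). It was −0.47 without HFD Mof+/- replicate 1 and 0.11 without HFD Mof+/- replicate 2, so its negative sign rested on replicate 2 of that group. Neither edgeR nor the permutations within diets placed the difference beyond the spread between libraries, and permutations on SD alone could not reach a p under 0.05.

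**Figure D1:**
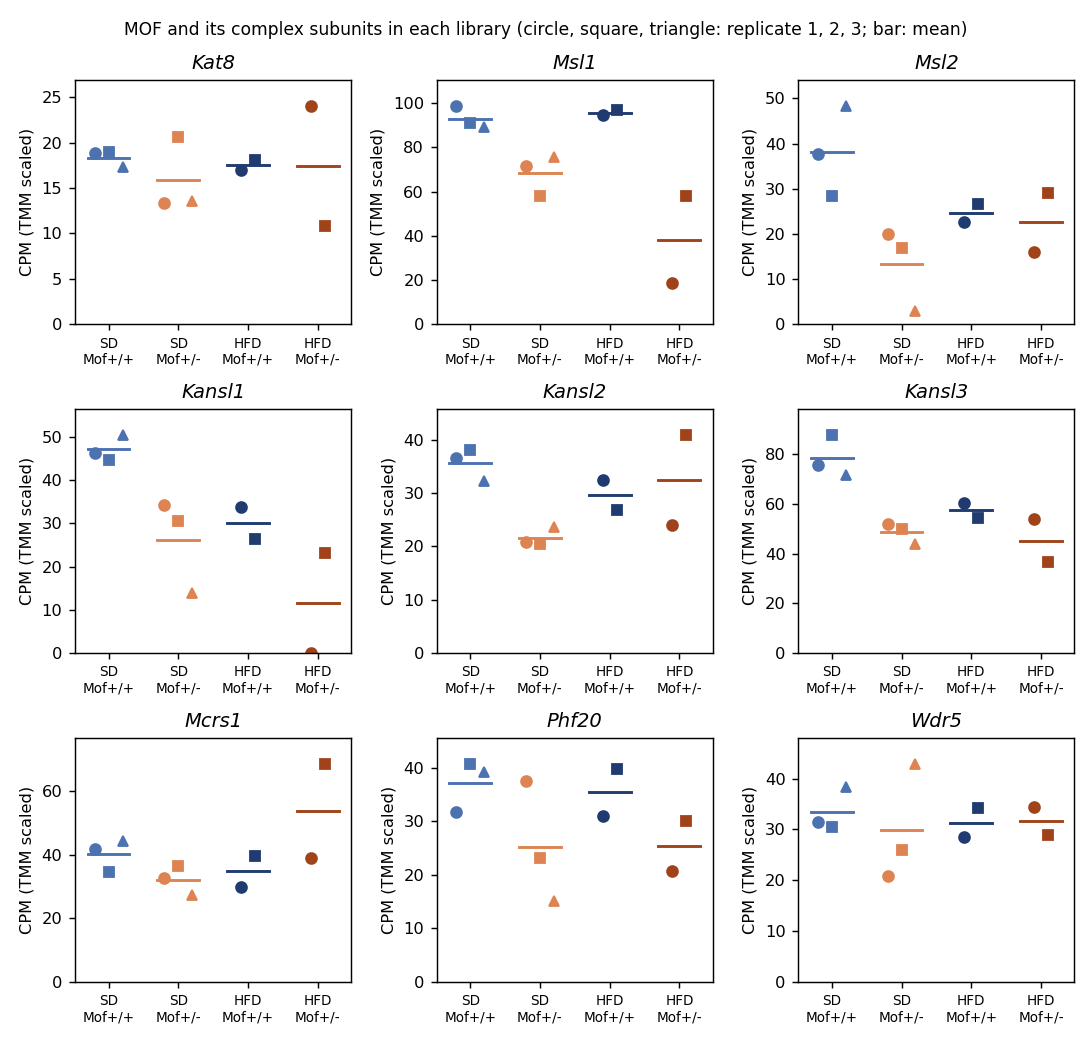
CPM after TMM scaling (vertical axis, from 0) of Kat8 and 8 subunits in each library, by diet and genotype. Circles, squares and triangles are replicates 1, 2 and 3, and bars are group means. SD Mof+/- libraries sit below all SD Mof+/+ libraries for Msl1, Msl2, Kansl1, Kansl2 and Kansl3, and the Kat8 points of SD Mof+/- replicate 2 and HFD Mof+/- replicate 1 are above their Mof+/+ groups.

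Msl1 and Msl2, the members from the MSL complex, had lower levels in SD Mof+/- than in SD Mof+/+ libraries, without overlap, where 17.5% of the 13864 genes tested had that order after TMM scaling, and neither passed the test. Msl1, the scaffold (ENSMUSG00000052915.14, chr11:98795516-98807859), was at 112, 103 and 105 CPM in SD Mof+/+ and 65.5, 52.9 and 63.6 CPM in SD Mof+/- libraries. Msl2, the ubiquitin ligase (ENSMUSG00000066415.4, chr9:101074101-101104800), was at 42.9, 31.9 and 57.0 CPM in SD Mof+/+ and 18.2, 15.4 and 2.38 CPM in SD Mof+/- libraries. The lowest value, in SD Mof+/- replicate 3, rests on 16 counts. The log2 fold change was −0.45 for Msl1 (standard error 0.22, adjusted p = 0.235, edgeR) and −1.53 for Msl2 (standard error 0.60, 95% interval −2.89 to −0.18, adjusted p = 0.152, edgeR). Without SD Mof+/- replicate 3, the log2 fold change of Msl2 was −1.06 (adjusted p = 0.0914, edgeR). Msl2 was called in 1 alternative, with no filter on low counts (−1.50, adjusted p = 0.0489, edgeR), which called 8.35% of 22039 genes.

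Among the NSL subunits on SD, the 3 KANSL genes had no overlap between genotypes (against the same 17.5%), and Mcrs1 and Phf20 overlapped after TMM scaling. Kansl1, the scaffold (ENSMUSG00000018412.16, chr11:104333229-104468861), was at 52.6, 50.4 and 59.6 CPM in SD Mof+/+ and 31.3, 27.9 and 11.6 CPM in SD Mof+/-. Kansl2 (ENSMUSG00000022992.16, chr15:98517658-98534264) was at 41.5, 43.0 and 37.9 CPM in SD Mof+/+ and 19.0, 18.6 and 19.9 CPM in SD Mof+/-. Kansl3 (ENSMUSG00000010453.12, chr1:36335730-36369181) was at 85.8, 99.2 and 84.5 CPM in SD Mof+/+ and 47.7, 45.7 and 36.7 CPM in SD Mof+/-. Every SD Mof+/- library was thus below every SD Mof+/+ library for these genes, and Kansl2 varied least within SD Mof+/-. Their log2 fold changes were −0.86, −0.73 and −0.70, with adjusted p of 0.168, 0.133 and 0.0942 (edgeR), the last being the lowest among the members.

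Mcrs1 (ENSMUSG00000037570.15, chr15:99242817-99251961), which also serves in other chromatin complexes, was at 47.6, 39.0 and 52.1 CPM in SD Mof+/+ and 29.9, 33.3 and 22.9 CPM in SD Mof+/-. Phf20 (ENSMUSG00000038116.16, chr2:156196466-156309952), a reader with Tudor domains, was at 36.0, 46.0 and 46.2 CPM in SD Mof+/+ and 34.3, 21.1 and 12.6 CPM in SD Mof+/-. Wdr5 (ENSMUSG00000026917.15, chr2:27515157-27536535), the adaptor that the NSL complex shares with the H3K4 methyltransferases, was at 35.9, 34.5 and 45.2 CPM in SD Mof+/+ and 19.2, 23.7 and 36.1 CPM in SD Mof+/-. After TMM scaling, SD Mof+/- replicate 3 had the most Wdr5 of the SD libraries (43.0 CPM) and the least Phf20 (15.0 CPM). The log2 fold changes were −0.33, −0.57 and −0.17, with adjusted p of 0.460, 0.357 and 0.788 (edgeR).

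Taking the 9 members on SD, 0 were called at an adjusted p under 0.05, where edgeR called 5.24% of the 13864 genes tested, and 4 had an unadjusted p under 0.05, where 25.7% of the genes tested did. DESeq2 also called 0 members, where it called 10.1% of 21840 genes. All 9 fitted log2 fold changes were below 0, where 53.2% of the genes tested were, and their median was −0.57 against −0.07 over the genes tested. With the third SD libraries exchanged, as the file headings name them, 5 of 9 were below 0. The groups were without overlap and lower in Mof+/- for 5 members, where 17.5% of the genes tested were, and on total counts for 8, where 30.6% were. On total counts the sum over the members was 484 ± 21.1 CPM in SD Mof+/+ and 251 ± 30.5 CPM in SD Mof+/- (s.d., n = 3), and after TMM scaling 421 ± 8.26 and 281 ± 22.2 CPM. In bulk tissue, fewer cells that express a gene and less of its RNA per cell cannot be told apart, and the 5 endothelial markers summed to 798 to 1892 CPM in SD Mof+/+ and 153 to 237 CPM in SD Mof+/-. The 5 mesothelial markers summed to 22.5 to 59.1 CPM in SD Mof+/+ and 151 to 319 CPM in SD Mof+/-, and the 5 glial markers to 98.6 to 1104 and 36.4 to 55.9 CPM. The part of this cell makeup in the result was not tested.

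**Figure D2:**
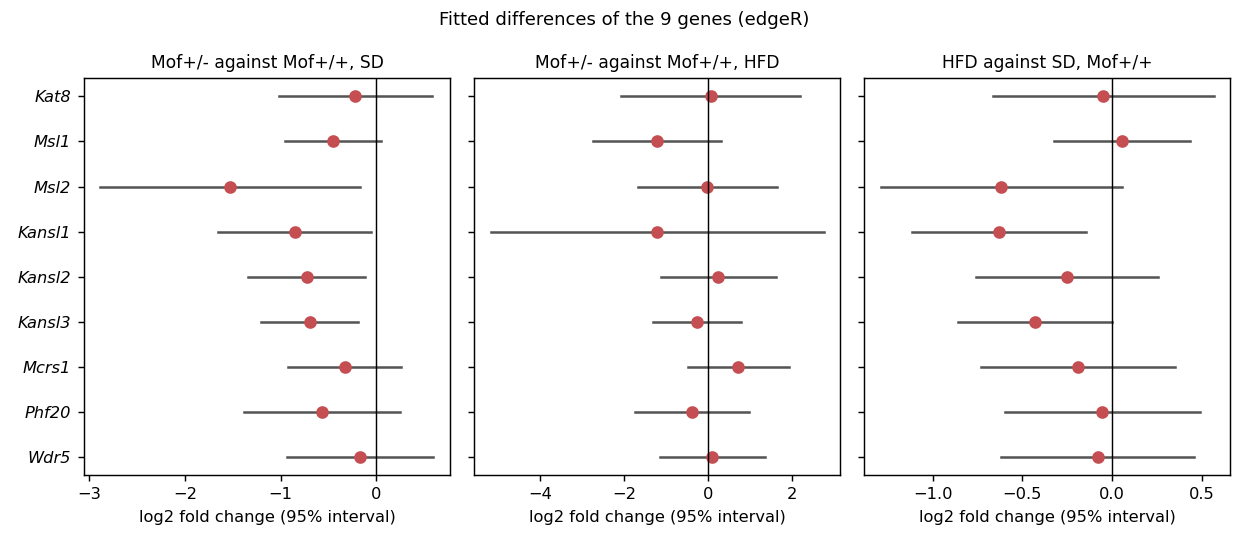
Fitted log2 fold changes (points) with 95% intervals (lines) of the 9 genes from edgeR, for genotype on SD, genotype on HFD and diet in Mof+/+, each panel with its own horizontal axis. On SD all the points are below 0, and the intervals of Msl2, Kansl1, Kansl2 and Kansl3 leave out 0; on HFD every interval holds 0.

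Transcript length moved with genotype on SD. The rank correlation between exon length and a library's deviation from the mean of all libraries, across genes, was 0.35 to 0.40 for SD Mof+/+ and 0.13, −0.18 and −0.43 for SD Mof+/- replicates 1 to 3. The members have exon lengths of 2891 bp (Kat8) to 9988 bp (Phf20), with a median of 5433 bp against 4322 bp for the genes tested. After a smooth correction for exon length, all 9 log2 fold changes stayed below 0 with a median of −0.38 against −0.02 over the genes tested, and 0 were called, where 3.26% of the genes tested were. The change became smaller for the longer transcripts Phf20 (−0.11), Kansl3 (−0.32), Kansl1 (−0.52) and Msl1 (−0.18), and larger for the short Kat8 (−0.42). That of Msl2 was −1.31 and that of Kansl2 −0.72. For the HFD libraries the same rank correlation was 0.094 and −0.0050 in Mof+/+ and −0.11 and −0.25 in Mof+/-. Length thus also moved with genotype on HFD and with diet in Mof+/+.

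**Figure D3:**
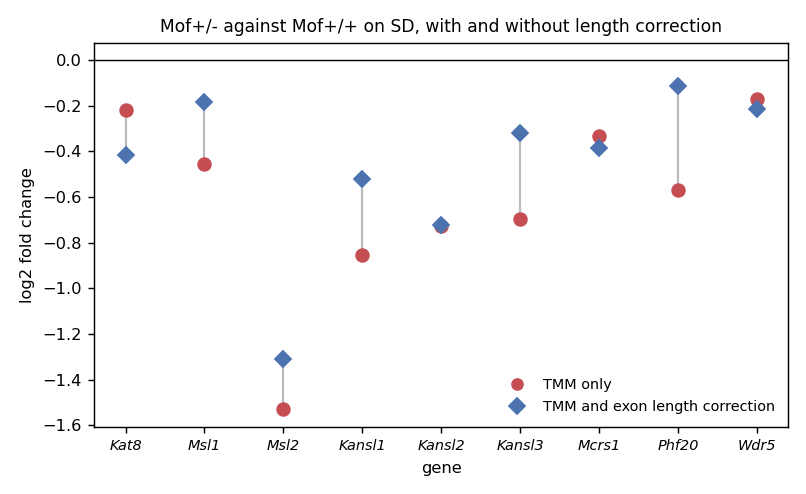
Log2 fold changes of the 9 genes between SD Mof+/- and SD Mof+/+ (vertical axis) with TMM scaling alone (circles) and with an added correction for exon length (diamonds). All points lie below 0 in both fits, and Phf20 moved from −0.57 to −0.11 and Kat8 from −0.22 to −0.42.

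On HFD, where all libraries shared the sex-linked pattern, the members had no common direction. Their log2 fold changes between Mof+/- and Mof+/+ were below 0 for 5 and above 0 for 4, where 59.4% of the 14120 genes tested were below 0, and the median was −0.02. With the correction for exon length, 4 were below 0 and the median was 0.0098. Msl1 was at 101 and 103 CPM in Mof+/+ and 15.3 and 56.2 CPM in Mof+/-. Kansl1 was at 36.1 and 28.1 CPM in Mof+/+ and at 0 and 22.4 CPM in Mof+/-, Kansl3 at 64.5 and 57.9 against 45.0 and 35.4 CPM, and Phf20 at 33.1 and 42.4 against 17.2 and 29.3 CPM. These 4 members were lower in Mof+/- without overlap, where 38.1% of the genes tested were, and on total counts 5 were, with Wdr5, where 45.6% were. Macrophage markers summed to 3690 to 4685 CPM in Mof+/+ and 1100 to 1866 CPM in Mof+/-, and their part was not tested. Mcrs1 was at 31.9 and 42.3 CPM in Mof+/+ and 32.6 and 66.7 CPM in Mof+/-.

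No member was called on HFD. edgeR called 0 genes, 0% of those tested, with 1732 (12.3%) at an unadjusted p under 0.05, none of them a member, and DESeq2 called 198 genes (0.973%), none of them a member. The log2 fold changes of Msl1 and Kansl1 were −1.21 (95% interval −2.74 to 0.31, adjusted p = 0.559) and −1.22 (−5.18 to 2.75, adjusted p = 0.856) by edgeR. That of Kat8 was 0.06 (−2.07 to 2.20, adjusted p = 0.987, edgeR). The count of 0 for Kansl1 in HFD Mof+/- replicate 1 allows up to 2.87 CPM (3 counts). Since many well expressed genes were at 0 in that library, as given above, a limit from counting is too narrow there. Without HFD Mof+/- replicate 1, in a fit of all groups, the log2 fold changes were −0.64 for Kat8, −0.67 for Msl1 and −0.33 for Kansl1. Without replicate 2, which leaves the library rich in muscle transcripts as the lone HFD Mof+/- library, assumed to vary like the other groups in a fit of all groups, Msl1 (−2.39, adjusted p = 0.00284) and Kansl1 (adjusted p = 0.00404) were called by edgeR. That fit called 19.3% of 17895 genes, and 15.8% were called as lower.

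In Mof+/+ mice, no member was called between HFD and SD, and those with the largest fitted differences were lower on HFD. Msl2 was at 24.0 and 28.3 CPM on HFD, Kansl1 at 36.1 and 28.1 CPM and Kansl3 at 64.5 and 57.9 CPM, and each was below all 3 SD libraries. These 3 members were lower without overlap, where 24.0% of the genes tested were, and on total counts 5 were, with Kat8 and Kansl2, where 28.2% were. Their log2 fold changes after TMM scaling were −0.62, −0.63 and −0.43, with adjusted p of 0.207, 0.0994 and 0.174 (edgeR). Kat8 (−0.05, 95% interval −0.66 to 0.57) and Msl1 (0.06, −0.32 to 0.44) had values near 0. In all, 8 of 9 log2 fold changes were below 0, where 52.2% of the genes tested were, and 0 members were called where edgeR called 9.75% of 14939 genes. DESeq2 called 0 members, where it called 13.7% of 21957 genes, and 2 had an unadjusted p under 0.05 in edgeR, where 28.4% of the genes tested did. With the third SD libraries exchanged, 4 of 9 were below 0. With the correction for exon length no member had an unadjusted p under 0.05, where 25.3% of genes did. Then 7 of 9 were below 0, with Msl1 at 0.19 and Phf20 at 0.29. Age differed with diet here, as described. The 5 macrophage markers summed to 775 to 1442 CPM on SD and 3690 to 4685 CPM on HFD, and the endothelial markers to 798 to 1892 and 319 to 401 CPM, with no marker of either list at 0, and their part in the result was not tested.

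In Mof+/- mice the HFD libraries overlapped the SD libraries for 6 of 9 members. Msl1 was lower on HFD without overlap (20.3% of 13610 genes tested were), and Kansl2 and Mcrs1 were higher without overlap (9.32% were). These orders rest on TMM scaling: on total counts 0 members were lower without overlap (17.7% of genes) and 1, Kansl2, was higher (9.88%). Kansl2 was at 20.1 and 39.8 CPM on HFD, with a log2 fold change of 0.62 (adjusted p = 0.834, edgeR), and Mcrs1 at 0.78 (adjusted p = 0.706, edgeR). edgeR called 0% of the genes (1166, or 8.57%, at an unadjusted p under 0.05, with no member among them), and DESeq2 called 477 (2.33%), with no member. These 5 libraries differ in sex-linked transcripts as well as in diet and age.

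Taking genotype over both diets in 1 fit of all libraries, 8 of 9 members were below 0, with a median of −0.52 against −0.21 over the genes tested, and 0 were called. edgeR called 0% of 15897 genes, with 2977 (18.7%) at an unadjusted p under 0.05, Msl1 and Kansl3 among them. DESeq2 called 7.10% of the genes it tested and 1 member, Kansl3 (log2 fold change −0.58, adjusted p = 0.0457), which edgeR gave as −0.56 (adjusted p = 0.215). For Kat8 this fit gave −0.15 (95% interval −0.94 to 0.64, adjusted p = 0.864, edgeR). The interaction of genotype and diet was called for 0.0881% of genes and for no member, with log2 differences of −0.82 (Msl1) to 1.42 (Msl2) and a lowest adjusted p of 0.485 (Mcrs1, edgeR). No member had an unadjusted p under 0.05 there by edgeR, where 12.4% of genes did, and DESeq2 called none of them, where it called 2.17% of genes. In these fits of all 10 libraries, a difference between diets in the effect of genotype was therefore not detected for any member.

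The share of Kat8 among the reads of the 9 genes does not depend on library scaling, but was not corrected for exon length. It was 4.51%, 4.56% and 4.01% in SD Mof+/+ and 4.41%, 7.31% and 5.27% in SD Mof+/-. On HFD it was 4.86% and 4.98% in Mof+/+ and 10.4% (exact Clopper-Pearson 95% interval 6.58% to 15.5%) and 3.31% (2.52% to 4.26%) in Mof+/-. On SD, 2 of 3 Mof+/- libraries had a higher share than any Mof+/+ library. Kat8 has the shortest exon length of the 9 genes (2891 bp), and length moved with genotype on SD, as given above. With the correction for exon length on SD, the log2 fold change of Kat8 was −0.42 and the median of the 9 was −0.38. The part of length in the share and in the ratios below was not tested. The log2 ratio of Kat8 to the other 8 members differed by 0.33 between genotypes (Mof+/- higher, exact permutation test within diets, p = 0.55). Against the NSL subunits Kansl1, Kansl2, Kansl3, Mcrs1 and Phf20 alone it differed by 0.23 (exact p = 0.617) and against Msl1 and Msl2 by 0.73 (exact p = 0.283). The value was −0.11 without HFD Mof+/- replicate 1 and 0.77 (exact p = 0.05) without HFD Mof+/- replicate 2.

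**Figure D4:**
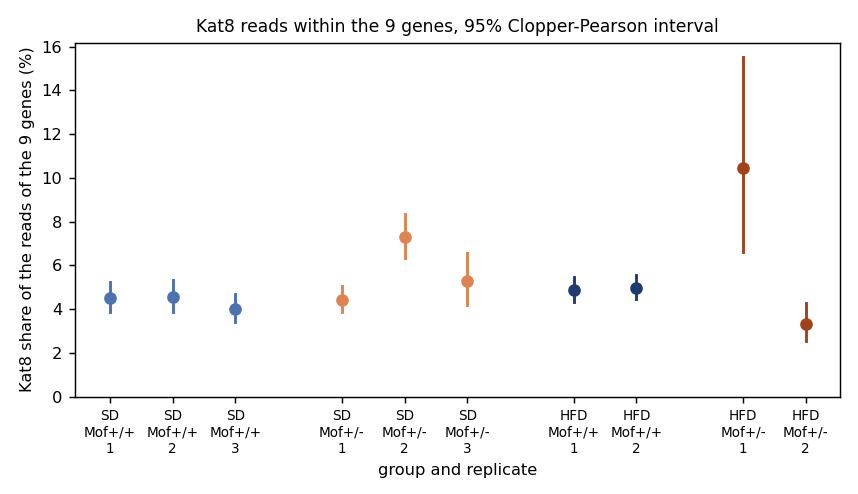
Share of Kat8 in the reads of the 9 genes (percent, vertical axis from 0) in each library, with exact 95% Clopper-Pearson intervals, which cover counting error only. Libraries of Mof+/+ lie between 4.01% and 4.98%, and those of Mof+/- between 3.31% and 10.4%. Shares were not corrected for exon length.

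Other genes of the same pathway were read from lists. Msl3, Hcfc1 and Ogt, the X-linked subunits of these complexes, had 1 called gene of 3 on SD (5.24% of all genes tested), where sex-linked transcripts differed too. Ogt, which encodes the enzyme that adds O-GlcNAc, was at 245, 184 and 254 CPM in SD Mof+/+ and at 61.4, 42.4 and 27.8 CPM in SD Mof+/- mice. It fell by 2.03 on the log2 scale (standard error 0.30, adjusted p = 0.0227, edgeR), and lost the call in 5 of 15 alternatives, with the same direction in all 15. It was lost without any 1 of the SD Mof+/+ libraries and without SD Mof+/- replicate 2 (adjusted p = 0.0634 to 0.124, edgeR), and with the third SD libraries exchanged, where its log2 fold change was −0.32 (adjusted p = 0.9998, edgeR). On HFD, Ogt was at 151 and 135 CPM in Mof+/+ and 98.6 and 54.1 CPM in Mof+/-, with a log2 fold change of −0.54 (adjusted p = 0.781, edgeR). Hcfc1, a transcriptional coregulator, had −1.10 on SD (adjusted p = 0.0709, edgeR) and Msl3, the MSL subunit with a chromodomain, 0.28 (adjusted p = 0.684, edgeR). DESeq2 called Hcfc1 as well as Ogt on SD (Hcfc1 −1.11, adjusted p = 0.0139). The paralogs Kansl1l and Phf20l1 were not called in any comparison by edgeR, nor were the H4K16 deacetylases Sirt1 and Sirt2. DESeq2 called 1 of these 4, Phf20l1, for genotype over both diets (−1.07, adjusted p = 0.0285).

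Of 9 partners of WDR5 in the H3K4 methyltransferases, 1 rose and 0 fell on SD by edgeR, where 5.24% of the genes tested were called. DESeq2, which called 10.1% of genes, called 1 higher and 3 lower, and the latter were Kmt2b (−1.16, adjusted p = 0.0388), Kmt2c (−1.16, adjusted p = 0.0113) and Kmt2d (−1.78, adjusted p = 0.00194). DESeq2 was run only without the correction for exon length, and the part of length in its calls was not tested. Dpy30, a small shared subunit, was at 19.4, 19.2 and 16.5 CPM in SD Mof+/+ and 35.8, 40.8 and 44.9 CPM in SD Mof+/- (log2 fold change 1.50, adjusted p = 0.0325, edgeR). The other 8, among them the catalytic subunits Kmt2a, Kmt2b, Kmt2c, Kmt2d, Setd1a and Setd1b, had log2 fold changes below 0, of which Kmt2d had the lowest (−1.75, adjusted p = 0.0530, edgeR). With the correction for exon length Dpy30 was at 0.65 (adjusted p = 0.198, edgeR), and it lost the call in 8 of 15 alternatives, among them without any 1 of the SD Mof+/+ libraries and without SD Mof+/- replicate 2 (adjusted p = 0.102 to 0.152, edgeR). With the third SD libraries exchanged it was at 0.15. In Mof+/+ mice on HFD, where 9.75% of the genes tested were called, Dpy30 rose (1.16, adjusted p = 0.0299), and Kmt2c (−1.25, adjusted p = 0.0132) and Setd1b (−1.42, adjusted p = 0.0243) fell against SD by edgeR. The calls of these 3 genes were lost with the correction for exon length (log2 fold changes 0.72, −0.72 and −1.02, adjusted p = 0.130, 0.0770 and 0.0599, edgeR) and with all 10 libraries in one fit (log2 fold changes 1.15, −1.26 and −1.43, adjusted p = 0.214, 0.602 and 0.619, edgeR), where the values were about the same as before and the spread was that of all groups. In the fit of Mof+/+ libraries alone, Dpy30 also lost the call without SD Mof+/+ replicate 1 (adjusted p = 0.0735, edgeR), without replicate 2 (0.0510) and with the replicate block (0.0658), and Setd1b without SD Mof+/+ replicate 1 (0.0600), each with a log2 fold change close to its first value. The 3 calls were also lost without either HFD Mof+/+ library (adjusted p = 0.933 to 1, edgeR), but that fit too was of all groups, with 1 HFD Mof+/+ library assumed to vary like the other groups, so the library left out and the larger fit cannot be told apart. With the third SD libraries exchanged, Dpy30 was at 0.31, Kmt2c at −0.87 and Setd1b at −1.22, and none was called by edgeR. DESeq2 called these 3 genes and Kmt2d (−0.96, adjusted p = 0.00600) for diet in Mof+/+, as well as Hcfc1 (−0.72, adjusted p = 0.00485) and Ogt (−0.56, adjusted p = 0.0407), where it called 13.7% of genes. The HFD comparisons of genotype, of diet in Mof+/- and of both diets in 1 fit called none of the 16 genes on these lists by edgeR. DESeq2 called none of them on HFD or for diet in Mof+/-, and 6 for genotype over both diets, where it called 7.10% of genes.

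**Figure D5:**
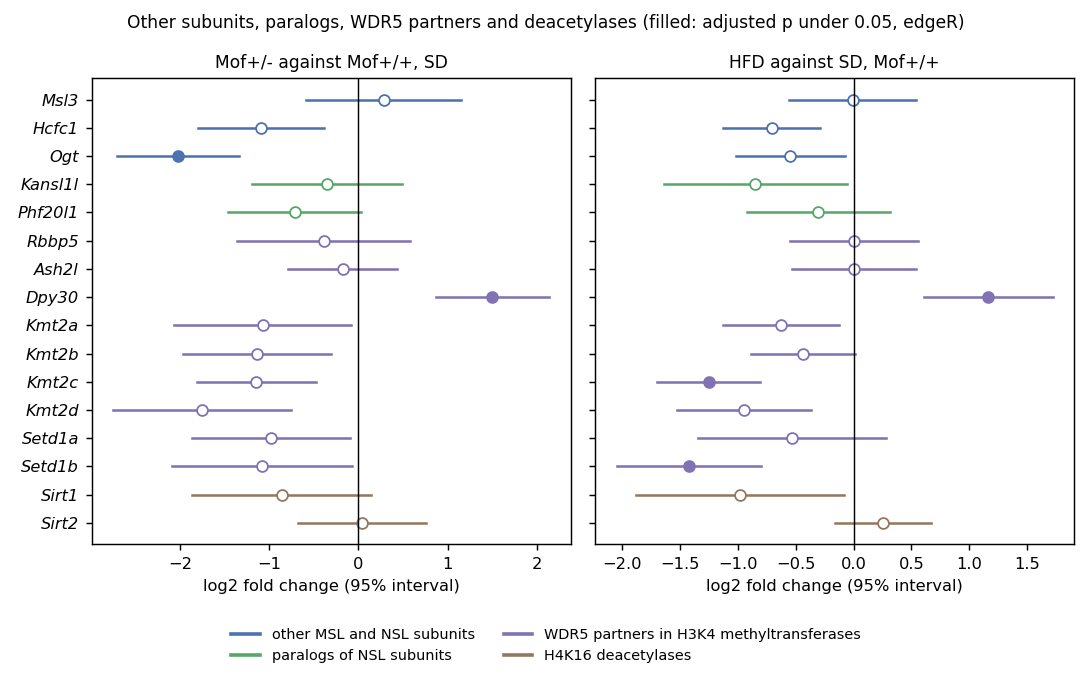
Fitted log2 fold changes (points) with 95% intervals (lines) of the 16 listed genes outside the 9, for genotype on SD and for diet in Mof+/+. Filled points passed an adjusted p under 0.05 (edgeR): Ogt (lower) and Dpy30 (higher) on SD, and Dpy30 (higher), Kmt2c and Setd1b (lower) on HFD.

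The genes whose levels ran most like those of Kat8 over the 10 libraries were Zfp410, Chrnb1, Mindy3, Dcp1b and Ammecr1l, with Pearson correlations of log2 CPM of 0.93, 0.92, 0.90, 0.89 and 0.89. They were taken from 11308 genes with a mean of at least 50 counts, and libraries share depth and composition, so these values are a description. None of them is a member. The member most like Kat8 was Kansl3 (r = 0.57, rank 660), and the one with the lowest r was Kansl1 (r = −0.43, rank 8013). The Spearman correlation of Kansl1 was 0.0061, its count in HFD Mof+/- replicate 1 was 0, and the member with the lowest Spearman correlation was Kansl2 (−0.18). Of the genes beside Kat8 on chromosome 7 (Gm21974, Vkorc1 and Bckdk before it, Prss8 and Prss36 after it), Gm21974 and Prss8 did not pass the filter on low counts, and none of the others was called between genotypes on SD or HFD by edgeR. Vkorc1 had the lowest adjusted p of them on SD (log2 fold change 1.34, adjusted p = 0.0993, edgeR). Prss8 lies on the opposite strand and overlaps the end of Kat8 by 122 bp, and the kit does not mark strand, so reads from this stretch cannot be told apart.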

How the data were processed

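Visceral WAT was lysed, poly(A) RNA libraries were made with a kit that does not mark strand (TruSeq v2) and sequenced on a NovaSeq. Reads were aligned by the authors to GRCm38 (STAR), and the deposited values are whole read counts of featureCounts for each gene (Subread 1.5.0-p1, per the submitters' processing notes), in 1 file per library and not normalized. Gene names, positions and exon lengths were taken from the GENCODE annotation of GRCm38 by Ensembl identifier without version (47224 of 47937 matched). Of the rows, 0 name no gene.

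CPM was computed on total counts. Comparisons were tested with edgeR 4.0.16 (filterByExpr, TMM, quasi-likelihood test, Benjamini-Hochberg adjustment over all genes tested, threshold 0.05), with each pair of groups in a fit of its own, and diet as a covariate or in an interaction over all 10 libraries. Alternatives were DESeq2 1.42.0, its size factors, other filters, a smooth correction for exon length, the grouping by file headings, a replicate block and leaving out each library. Kat8 was also tested by exact permutation of labels on log2 CPM (prior count 1). Totals per library were 1044355 to 17171947, where 1 count is 0.958 CPM in the smallest. Replicates are separate animals per the design text. Groups without overlap were judged on TMM-scaled CPM.

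The members and gene lists were chosen with earlier results of these data known, and the lists were written from general knowledge. Named were all members, the listed genes, neighbours of Kat8, and the 5 genes most like it. Same-numbered libraries did not deviate together. Scripts were tested on simulated data with less spread between libraries than here. That test does not measure how often real changes are found in these libraries.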

Additional observations from a re-analysis of the deposited data

How the results depend on the processing

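The count of members called stayed at 0 in every other alternative run for the 6 comparisons, except that 1 (Msl2) was called on SD with no filter on low counts and 1 (Kansl3) was called for genotype over both diets with DESeq2. Leaving out 1 library gave counts of 0 to 2 for genotype on HFD, for diet in Mof+/- and for the interaction, where the 2 were Msl1 and Kansl1 without HFD Mof+/- replicate 2, and 0 in the rest. With the third SD libraries exchanged, as the file headings name them, the log2 fold changes on SD reversed for Msl2 (0.30), Kansl1 (0.13), Mcrs1 (0.12) and Phf20 (0.18), and those of diet in Mof+/+ for Kat8 (0.055), Msl2 (0.12), Mcrs1 (0.032) and Phf20 (0.30). The members below 0 then numbered 5 in place of 3 for diet in Mof+/-, 7 in place of 8 for genotype over both diets and 6 in place of 2 for the interaction. edgeR called 0 genes on SD in that grouping, with 232 at an unadjusted p under 0.05. On HFD the log2 fold change of Kat8 reversed with at least 10 counts in every library (−0.081) and with all 10 libraries in one fit (−0.059), and ran from −0.64 to 0.45 when 1 library was left out. That of Wdr5 on SD ran from −0.53 to 0.044. The Kat8 level within diets ran from −0.47 to 0.11 and its share from −0.11 to 0.77 (log2) when 1 library was left out. The cause of these reversals was not tested.

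Replicate numbers do not pair the samples: same-numbered SD libraries had correlations of their deviations of 0.0053 to 0.0077. With the replicate block, 0 members were called in each of the 6 comparisons. edgeR then called 428 genes on SD in place of 727, and 200 on HFD in place of 0. For diet it called 1460 in Mof+/+ in place of 1457, and 245 in Mof+/- in place of 0. It called 7 for genotype over both diets in place of 0, and 10 for the interaction in place of 14. Kat8 on HFD was at −0.038 with the block (−0.10 with the correction for exon length added).

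Over the alternatives, edgeR or DESeq2 called 0 to 2204 genes for genotype on SD, 0 to 3456 on HFD, 0 to 2998 for diet in Mof+/+, 0 to 3903 for diet in Mof+/-, 0 to 1616 for genotype over both diets and 0 to 3163 for the interaction. The third SD libraries could not be exchanged for genotype on HFD, which holds none of them. Depth limits the HFD Mof+/- group most, with 21 counts of Kat8 in its smaller library.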
